A study of Homo sapiens with 12 samples.

Results

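CGA and SULT1C4 are 2 of the 26058 genes listed for HEK293 cells, and they were chosen because their RNA was higher in an AMPK knockout line than in the wild-type line. Their difference between the lines is therefore a description and carries no test. CGA (ENSG00000135346) is a protein-coding gene on the minus strand of chromosome 6, from 87085498 to 87095106 (GRCh38), with 6 annotated transcripts. SULT1C4 (ENSG00000198075) is a protein-coding gene on the plus strand of chromosome 2, from 108377911 to 108388989, with 3 annotated transcripts. No other annotated gene overlapped either of them.

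CGA encodes the alpha subunit that the glycoprotein hormones share. Chorionic gonadotropin, luteinizing hormone, follicle-stimulating hormone and thyrotropin each pair it with their own beta subunit, and the gene is best known from pituitary gonadotropes and thyrotropes and from placental trophoblast. Its promoter is a textbook example of induction by cyclic AMP, through cAMP response elements bound by CREB and its relatives. SULT1C4 is a cytosolic sulfotransferase, an enzyme that moves a sulfonate group from the donor PAPS to phenolic drugs, hormones and carcinogens, and it is best known from fetal tissues. AMPK is the kinase that responds to a falling energy charge, and with its relatives the salt-inducible kinases it can phosphorylate the CRTC coactivators of CREB and so hold them outside the nucleus.

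HEK293 is a human embryonic kidney line. The wild-type cells (WT) and a derivative in which PRKAA1 and PRKAA2, the genes of both catalytic AMPK subunits, had been knocked out by CRISPR (AMPK KO) came as a gift from another laboratory, and whether the knockout line is 1 clone was not stated in the sources used here. All cells were serum starved for 24 h. They received the solvent DMSO alone, DMSO with epidermal growth factor (EGF) for the last 30 min, or 25 µM cordycepin with EGF for the last 30 min, and the labels give 50 min of treatment in total for each group. Cordycepin (3′-deoxyadenosine) resembles adenosine, and its triphosphate can end a growing poly(A) tail. The study states that in intact cells it does not end pre-mRNA chains in general, though it inhibits transcription of some RNAs. Each of the 6 groups held 2 libraries, numbered 2 and 3, of ribosomal RNA-depleted RNA. The study calls them biological replicates, but no source used here says whether they came from separate cultures, so p-values measure the spread between these libraries, which may be technical. The comparison asked whether the 2 genes that stood higher without AMPK also answered to EGF and cordycepin, and whether they did so alike in both lines.

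The upstream regions of both genes are shown because each holds the complete palindromic cAMP response element. The 150 bases before the RefSeq start are given 5′ to 3′ on the strand of the gene, from the RefSeq promoter table (GRCh38.p14), with each TGACGTCA in capitals. CGA lies at chr6:87095107-87095256 (minus strand) and SULT1C4 at chr2:108377804-108377953 (plus strand).
CGA: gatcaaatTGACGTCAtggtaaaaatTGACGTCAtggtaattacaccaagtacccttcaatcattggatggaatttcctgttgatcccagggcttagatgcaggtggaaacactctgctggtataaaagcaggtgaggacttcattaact
SULT1C4: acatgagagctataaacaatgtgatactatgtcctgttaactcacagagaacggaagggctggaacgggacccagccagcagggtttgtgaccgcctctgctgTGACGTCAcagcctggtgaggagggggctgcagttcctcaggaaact
The CGA window held the element at 142 to 135 and again at 124 to 117 bases before the start. The SULT1C4 window held it once, at 47 to 40 bases before the start. The RefSeq start of SULT1C4 is 108377954, while the gene span given above begins at 108377911 with a noncoding transcript, so the last 43 bases of the window lie inside that span and the element crosses its edge. For CGA both starts are the same. Over the 250 bases upstream of the start, 578 of 35116 promoters in the table (1.65%) held TGACGTCA on either strand, and 19 held it 2 or more times. The TATA box letters TATAAA, searched on both strands, were at 29 to 24 bases before the CGA start and at 140 to 135 bases before the SULT1C4 start, and 10.7% of promoters held them. The AP-1 letters TGANTCA were in neither window and in 6.57% of promoters. In the same 250 bases, SULT1C2, LHB, CGB3, CGB5 and PRKACB held no complete cAMP response element. All these searches describe only the letters of the windows. Binding was not measured.

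The knockout was read at the targeted genes first. In DMSO, PRKAA1 RNA averaged 18.7 ± 4.58 RPKM (reads scaled by gene length and library size, SD, n = 2) without the knockout and 7.49 ± 0.173 RPKM with it. For PRKAA2 the means were 10.04 ± 2.94 and 5.84 ± 0.353 RPKM. In cordycepin+EGF, PRKAA1 had 11.3 and 11.2 RPKM in WT against 7.03 and 8.5 RPKM in AMPK KO, while the PRKAA2 libraries overlapped (6.78 and 7.30 against 5.39 and 7.43 RPKM). The AMPK KO cordycepin+EGF libraries stood apart in another way: over the 381 other genes called between the lines in DMSO+EGF, on a scale where the WT DMSO mean is 0 and the AMPK KO DMSO mean is 1, their medians were 0.351 and 0.343, and those of the WT cordycepin+EGF libraries -0.038 and -0.00090. Over the 95 other genes called in DMSO, placed between the DMSO+EGF means, the AMPK KO libraries were near the AMPK KO end, at 0.893 and 0.901, and the WT ones at 0.153 and 0.324. Depth was uneven: the shallowest library, WT DMSO replicate 3, gave 3653237 recovered reads and no read for 1170 genes, while the deepest gave 24055122, and the other libraries lacked reads for 3 to 127 genes. Both members passed the filter on low values, a mean of at least 0.5 RPKM over all libraries, but the WT group means of SULT1C4 were all below it, so SULT1C4 passed through its AMPK KO level. None of the 661 stretches of 50 bases in the principal CGA transcript occurred in a transcript of another gene. In the principal SULT1C4 transcript 41 of 2801 did (1.46%).

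CGA RNA stood higher in every AMPK KO library than in any WT library, and the distance between the lines was narrowest in cordycepin+EGF. The WT DMSO libraries had 0.562 and 1.63 RPKM, from 19 and 13 reads. The WT DMSO+EGF libraries had 0.656 and 0.398 RPKM, and the WT cordycepin+EGF libraries 1.40 and 1.79 RPKM. The WT values thus ran from 0.398 to 1.79 RPKM, with both cordycepin libraries above both DMSO+EGF libraries. In AMPK KO cells CGA was at 6.98 and 6.79 RPKM in DMSO, at 5.72 and 6.79 RPKM in DMSO+EGF, and at 3.06 and 3.51 RPKM in cordycepin+EGF. Both AMPK KO cordycepin libraries were below the other 4 libraries of that line and still above all 6 WT libraries. By means, CGA was 6.29-fold higher in AMPK KO than in WT in DMSO, 11.9-fold in DMSO+EGF and 2.06-fold in cordycepin+EGF. The log2 differences in scaled RPKM + 0.5 were 2.28, 2.73 and 0.88. The first was 1.78 without WT DMSO replicate 2 and 2.77 without replicate 3, so the order of DMSO and DMSO+EGF depends on replicate 3. Among all listed genes the mean CGA level was at the 17.8th percentile in WT DMSO+EGF and at the 72.7th in AMPK KO DMSO.

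The order of the CGA group means was AMPK KO DMSO (6.88 ± 0.132 RPKM, SD, n = 2), AMPK KO DMSO+EGF (6.26 ± 0.755), AMPK KO cordycepin+EGF (3.29 ± 0.319), WT cordycepin+EGF (1.59 ± 0.278), WT DMSO (1.10 ± 0.753) and WT DMSO+EGF (0.527 ± 0.182). The upper pair differed by less than their spread. WT DMSO overlapped the groups on both sides of it, and its 2 libraries were almost as far apart as all WT values together. WT DMSO replicate 3, whose 1.63 RPKM rests on 13 reads, has an exact 95% Poisson interval of 0.867 to 2.78 RPKM. Such intervals cover counting error only.

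SULT1C4 RNA was near the floor in WT cells and at a steady moderate level in AMPK KO cells. The WT libraries had 0.368 and 0.259 RPKM in DMSO, 0.453 and 0.238 RPKM in DMSO+EGF, and 0.598 and 0.260 RPKM in cordycepin+EGF. No WT group stood apart from another, and in each of them replicate 2 was the higher library. WT DMSO replicate 3 rests on 4 reads, with an exact 95% Poisson interval of 0.0707 to 0.664 RPKM. The AMPK KO libraries had 3.43 and 3.47 RPKM in DMSO, 3.08 and 4.01 RPKM in DMSO+EGF, and 2.19 and 3.19 RPKM in cordycepin+EGF. The lowest AMPK KO library was above the highest WT library by a wide margin. By means, SULT1C4 was 11-fold higher in AMPK KO in DMSO, 10.3-fold in DMSO+EGF and 6.27-fold in cordycepin+EGF. The log2 differences of scaled RPKM + 0.5 were 2.26, 2.26 and 1.81, and on this scale the 0.5 that was added understates the change of so low a gene.

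**Figure D1:**
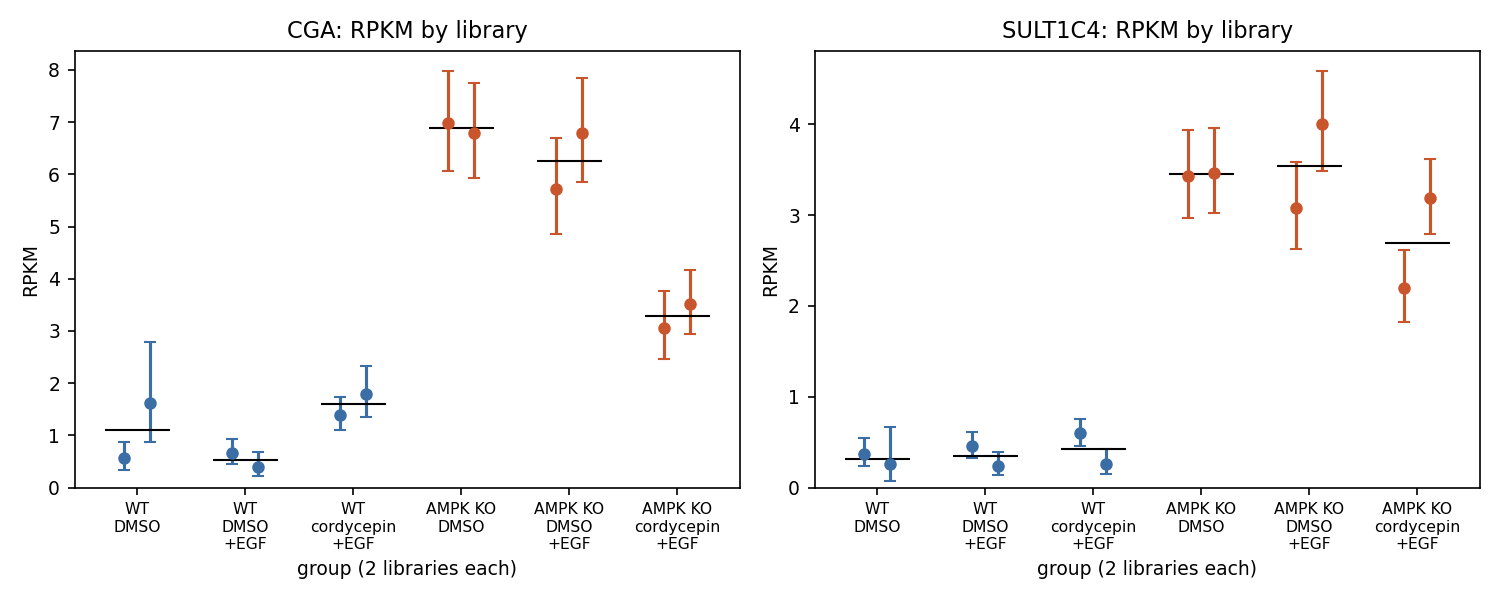
RPKM of CGA (left) and SULT1C4 (right) in each library, with 2 libraries per group; blue points are WT, orange points AMPK KO, bars the exact 95% Poisson interval of the reads, and black lines the group means. For both genes the AMPK KO libraries lie above every WT library, and CGA in AMPK KO cordycepin+EGF (3.06 and 3.51 RPKM) lies between the WT libraries and the other AMPK KO libraries.

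The order of the SULT1C4 group means was AMPK KO DMSO+EGF (3.54 ± 0.658 RPKM, SD, n = 2), AMPK KO DMSO (3.45 ± 0.0301), AMPK KO cordycepin+EGF (2.69 ± 0.702), WT cordycepin+EGF (0.429 ± 0.238), WT DMSO+EGF (0.346 ± 0.152) and WT DMSO (0.314 ± 0.0768). Neighbours in this order within a line differed by little more than their spread or less, so the gap between the lines was the only wide step.

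Over all genes, limma with Benjamini-Hochberg adjustment called 97 genes between the lines in DMSO (0.44%), 383 in DMSO+EGF (1.74%) and 26 in cordycepin+EGF (0.118%), of 22067 tested. CGA and SULT1C4 were picked on this contrast, so nothing is read from their place among those genes. The choice named no treatment, and the difference of a treatment effect between the lines is itself one difference between the lines minus another. Such tests are given below for both genes, and they are not independent of the choice: a narrower gap in another treatment can come with it. The tests within a line use groups that may have entered the choice, so they are not independent of it either.

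EGF did not change either gene past the test in either line. In WT cells the log2 difference of CGA between DMSO+EGF and DMSO was -0.57 (SE 0.299, 95% interval -1.25 to 0.10, adjusted p 0.541), and without WT DMSO replicate 2 it was -1.07 (adjusted p 0.0447). In AMPK KO cells it was -0.12 (95% interval -0.80 to 0.55, adjusted p 1.00). The SULT1C4 difference was 0.04 in WT (95% interval -0.54 to 0.62, adjusted p 0.972) and 0.03 in AMPK KO (95% interval -0.55 to 0.61, adjusted p 1.00). Few genes were called for EGF: 5 in WT (0.0227%) and 3 in AMPK KO (0.0136%), all higher. At an unadjusted p under 0.05 by limma there were 2144 (9.7%) in WT and 535 (2.4%) in AMPK KO. With 2 libraries per group, few calls do not show that few genes changed. The EGF effect of CGA was thus less negative in AMPK KO, with a log2 difference between the lines of 0.45 (SE 0.423, 95% interval -0.51 to 1.41, adjusted p 0.773), and without WT DMSO replicate 3 this difference was -0.046. That of SULT1C4 differed between the lines by -0.0030 (95% interval -0.82 to 0.82, adjusted p 1.00).

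With cordycepin CGA was higher in WT and lower in AMPK KO, and neither difference passed adjustment over all genes. These comparisons set cordycepin+EGF against DMSO+EGF. Both groups may have entered the choice of CGA for high AMPK KO values, so neither test is independent of that choice. No DMSO library enters the difference itself, but all 12 libraries set the estimate of the spread behind each SE and p. In WT cells CGA was 3.03-fold higher by means, with no overlap between the groups (log2 difference 1.06, SE 0.299, 95% interval 0.38 to 1.74, p 0.00635, adjusted p 0.266 by limma). The counting intervals of the 4 libraries were also separate: the lower bounds with cordycepin were 1.11 and 1.36 RPKM and the upper bounds without it 0.921 and 0.681 RPKM. In AMPK KO cells CGA was lower with cordycepin by a factor of 1.90, again with no overlap (log2 difference -0.79, SE 0.299, 95% interval -1.47 to -0.11, p 0.0269, adjusted p 0.177 by limma). The share of all genes whose libraries do not overlap was not computed, so no weight rests on the lack of overlap here or below. The test of the difference between the lines, which equals the line difference of 0.88 in cordycepin+EGF minus that of 2.73 in DMSO+EGF and so contains the contrast on which CGA was chosen, gave -1.85 (SE 0.423, 95% interval -2.81 to -0.89, p 0.00181, adjusted p 0.122 by limma). It passed in a fit of only the groups compared (adjusted p 0.0381), with voom on the recovered reads (-2.43, adjusted p 0.0115), and without WT DMSO replicate 2 (adjusted p 0.0189) or replicate 3 (adjusted p 0.0190).

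Few genes passed for cordycepin: 1 in WT (0.00453%) and 104 in AMPK KO (0.471%), of which 85 were higher and 19 lower. No gene passed the test of the cordycepin effect by line (0%) with limma, where 4716 had an unadjusted p under 0.05, while voom on recovered reads called 1981 of 21242. No gene passed the EGF effect by line (0%) with limma or voom, and 1917 had an unadjusted p under 0.05 with limma. The AMPK KO cordycepin+EGF libraries also sat between the lines over the 381 genes called in DMSO+EGF (0.351 and 0.343 on the scale given above), and the part of that position in the CGA result was not tested.

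SULT1C4 showed no cordycepin effect past the test. Its log2 difference was 0.14 in WT (SE 0.257, 95% interval -0.44 to 0.72, adjusted p 0.801) and -0.31 in AMPK KO (SE 0.257, 95% interval -0.89 to 0.27, adjusted p 0.507). The libraries with and without cordycepin overlapped in both lines. The effect differed between the lines by -0.45 (SE 0.363, 95% interval -1.27 to 0.37, adjusted p 0.50). Whether CGA and SULT1C4 differed from each other in their response was not tested.

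Against DMSO alone, cordycepin with EGF left CGA 2.09-fold lower in AMPK KO, with no overlap (log2 difference -0.91, SE 0.299, p 0.0138, adjusted p 0.144 by limma). In WT the log2 difference was 0.48 (adjusted p 0.394), and the DMSO libraries spanned the other group: it was 0.98 without WT DMSO replicate 3 (adjusted p 0.0396) and -0.01 without WT DMSO replicate 2 (adjusted p 0.983). SULT1C4 gave 0.18 in WT (adjusted p 0.726) and -0.28 in AMPK KO (adjusted p 0.544), where its libraries did not overlap either. This comparison called 15 genes in WT (0.068%) and 79 in AMPK KO (0.358%) by limma, and voom called 323 and 1562 of 21242. Limma gave 19.4% of genes in WT and 22.2% in AMPK KO an unadjusted p under 0.05.

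**Figure D2:**
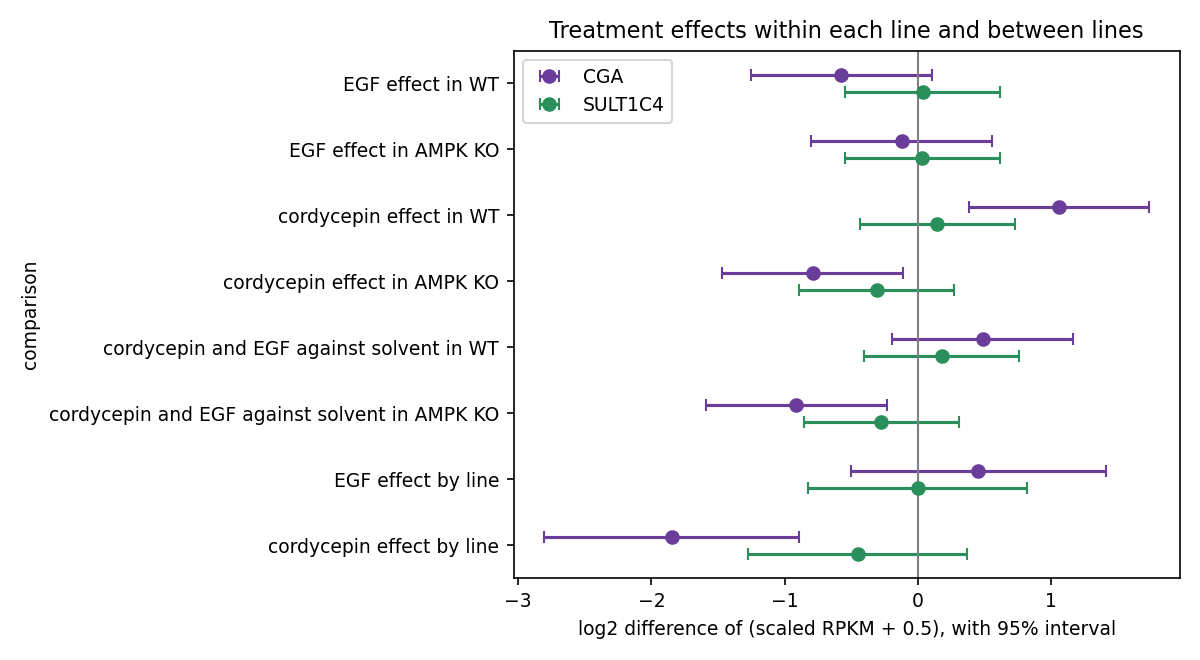
Differences on the log2 scale of scaled RPKM + 0.5 for CGA (purple) and SULT1C4 (green), with 95% intervals from limma, for each treatment comparison within a line and for the difference of that effect between lines (AMPK KO minus WT). For CGA the cordycepin effect is 1.06 in WT and -0.79 in AMPK KO, with a difference between the lines of -1.85, while every SULT1C4 interval spans 0.

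The alpha subunit needs a beta subunit to make a hormone, so the partners and receptors were read first. Of 15 genes on that list 6 were listed, and 3 besides CGA were tested. None was called in any comparison between the lines by limma or voom, and none of the 3 had an unadjusted p under 0.05 there. Over all genes the share at an unadjusted p under 0.05 was 21.3% in DMSO, 22.5% in DMSO+EGF and 13.7% in cordycepin+EGF, and the unadjusted counts of every list below stand against these shares. In DMSO, LHB, the beta subunit of luteinizing hormone, averaged 5.26 ± 2.04 RPKM (SD, n = 2) in WT against 7.00 ± 1.18 RPKM in AMPK KO. CGB5 and CGB2, copies of the chorionic gonadotropin beta gene, had 0.458 ± 0.554 and 0.241 ± 0.058 RPKM in WT DMSO against 0.504 ± 0.126 and 0.561 ± 0.376 RPKM in AMPK KO DMSO. These genes are near-identical copies of one another, so the split of reads among them is uncertain. In AMPK KO, LHB averaged 5.80 ± 0.9 RPKM in DMSO+EGF and 10.6 ± 0.758 RPKM in cordycepin+EGF, a log2 difference of 0.87 that did not pass (adjusted p 0.0966) and had the opposite sign to that of CGA. TSHR, the thyrotropin receptor, stayed below 0.1 RPKM by group mean and was not tested. The genes of follicle-stimulating hormone beta and thyrotropin beta were not analysed here.

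Markers of the cell types in which CGA is normally active were read next. Of 22 trophoblast markers 10 were listed and 7 tested, and none was called between the lines in any treatment by limma, with 0 to 2 at an unadjusted p under 0.05 and 0 to 2 called by voom. Their median log2 difference was -0.17 in DMSO, where 6 of 7 were lower in AMPK KO, against 0.01 over all genes. Their summed level in DMSO was 18.3 RPKM in both WT libraries and 15.6 to 15.8 RPKM in AMPK KO, and in the other 4 groups it ran from 17.0 to 23.1 RPKM. GCM1, the regulator of trophoblast fusion, averaged 0.331 and 0.488 RPKM in WT and AMPK KO given DMSO, and CYP19A1, the aromatase, 0.125 and 0.0890 RPKM. Of 14 pituitary markers 8 were listed and 6 tested. Their median log2 difference was 0.42 in DMSO, 0.22 in DMSO+EGF and 0.15 in cordycepin+EGF, against 0.01, -0.005 and 0.01 over all genes. In DMSO 4 of 6 were higher in AMPK KO. At an unadjusted p under 0.05 there were 3, 3 and 1 of 6, and voom called 1, 2 and 0. The defining pituitary regulators LHX3 and NR5A1 were at 0.319 RPKM or less in every group mean. The summed pituitary markers in DMSO were 17.6 to 18.0 RPKM in WT and 21.6 to 23.0 RPKM in AMPK KO, and 18.9 to 23.3 RPKM in the other groups. In bulk RNA, fewer cells of a type and less RNA per cell cannot be told apart.

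The kidney and HEK293 list checked the line itself. Of 15 genes 9 were listed and 6 tested. Their median log2 difference was -0.18 in DMSO and -0.07 in DMSO+EGF, with 4 of 6 lower in AMPK KO in each. It was 0.21 in cordycepin+EGF, with 5 of 6 higher. At an unadjusted p under 0.05 there were 1, 1 and 0 of 6, and voom called 0, 1 and 0. The summed level in DMSO was 37.5 to 49.4 RPKM in WT and 44.2 to 47.6 RPKM in AMPK KO. NEFL, a neurofilament gene that HEK293 cells express, averaged 21.2 RPKM in WT against 25.1 RPKM in AMPK KO cells given DMSO. SIX2, a nephron progenitor factor, was the only one called by limma, lower in AMPK KO after EGF (1.57 ± 0.431 to 0.230 ± 0.139 RPKM, log2 difference -1.49, SE 0.298, adjusted p 0.0496). This call held in 2 of 12 fits with 1 library left out. The kidney tubule markers UMOD and AQP2 were not analysed here.

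Transcription factors known from the CGA promoter showed no change between the lines that passed. Of 20 such genes 19 were listed and 15 tested, and limma called none in DMSO, DMSO+EGF or cordycepin+EGF. At an unadjusted p under 0.05 there were 2, 6 and 3 of 15, against 21.3%, 22.5% and 13.7% of all genes, and voom called 2, 3 and 1. Their median log2 differences were -0.05, 0.08 and -0.05. In DMSO+EGF, CREM, a cAMP-responsive relative of CREB1, averaged 4.15 RPKM in WT against 6.80 RPKM in AMPK KO (log2 difference 0.67, SE 0.142, adjusted p 0.0533). GCM1 and NR5A1 were too low to be tested.

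The cAMP and CRTC list held 24 genes, all listed and 23 tested, and 3 of them passed in some comparison named here. PRKACB, a catalytic subunit of protein kinase A, was higher in AMPK KO after EGF (6.33 ± 0.233 to 12.1 ± 0.603 RPKM, log2 difference 0.90, SE 0.150, adjusted p 0.0321). It then fell with cordycepin in AMPK KO, from 12.1 ± 0.603 to 5.95 ± 0.278 RPKM (log2 difference -0.92, SE 0.150, adjusted p 0.0477), while WT went from 6.33 ± 0.233 to 8.20 ± 0.424 RPKM (0.39, adjusted p 0.283). Its difference of effect between the lines was -1.31 (adjusted p 0.122). PDE4A, a phosphodiesterase that degrades cyclic AMP, was lower in AMPK KO after EGF (2.01 ± 0.0847 to 0.829 ± 0.113 RPKM, log2 difference -0.90, SE 0.182, adjusted p 0.0496). NR4A1, an immediate early target of CREB, rose in WT with cordycepin and EGF against DMSO, from 1.53 ± 0.00184 to 4.36 ± 0.623 RPKM (log2 difference 1.27, SE 0.160, adjusted p 0.0466). Between the lines, 1 gene of this list was called higher and 1 lower in DMSO+EGF, and none in DMSO or cordycepin+EGF by limma, where 0 and 2 had an unadjusted p under 0.05 and voom called 0 and 1. In DMSO+EGF 9 of 23 had an unadjusted p under 0.05, against 22.5% of all genes, and voom called 3. The mRNAs of CRTC1, CRTC2 and CRTC3 were not among the genes called. Calls of list genes were fragile: with 1 library left out, the call of PRKACB in DMSO+EGF held in 4 of 12 fits, and its cordycepin call and those of PDE4A and NR4A1 held in 2 of 12 each, with the same sign in all 12.

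Among the cytosolic sulfotransferases, SULT4A1 also rose in AMPK KO. Of 13 genes 9 were listed and 3 besides SULT1C4 tested. The filter used the mean over all libraries, so a gene low in WT could pass through its AMPK KO level. All 3 were higher in AMPK KO in each treatment, with median log2 differences of 0.88, 0.52 and 0.48 in DMSO, DMSO+EGF and cordycepin+EGF. Over all genes the medians were 0.01, -0.005 and 0.01, and 51.0%, 49.5% and 51.6% of genes were higher in AMPK KO. In each treatment 2 of 3 had an unadjusted p under 0.05, and voom called 2, 2 and 0. SULT4A1, a brain sulfotransferase, went from 4.16 ± 0.478 RPKM (SD, n = 2) in WT DMSO to 11.2 ± 1.85 RPKM in AMPK KO DMSO (log2 difference 1.30, SE 0.187, adjusted p 0.0298), a call that held in 6 of 12 fits with 1 library left out and was lost with a replicate block within each line (adjusted p 0.0694). In DMSO+EGF it had 5.65 ± 1.03 and 10.9 ± 1.21 RPKM (log2 difference 0.92, adjusted p 0.0501), which missed the threshold, and in cordycepin+EGF 5.70 ± 1.31 and 8.04 ± 0.42 RPKM (0.50, adjusted p 0.313). In DMSO, SULT1A1, a phenol sulfotransferase, averaged 0.328 ± 0.0433 RPKM in WT against 1.03 ± 0.0128 RPKM in AMPK KO (log2 difference 0.88, SE 0.161, adjusted p 0.0539). It belongs to a cluster of near-identical SULT1A copies, so its reads are uncertain. SULT1C2, the neighbour of SULT1C4 on chromosome 2 and of the same subfamily, had group means of 0.216 to 0.392 RPKM apart from 0.534 RPKM in AMPK KO cordycepin+EGF, and was too low to be tested. SULT1C4 was thus the one SULT1C gene above 1 RPKM in AMPK KO cells, while SULT1C3 was not analysed here.

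**Figure D3:**
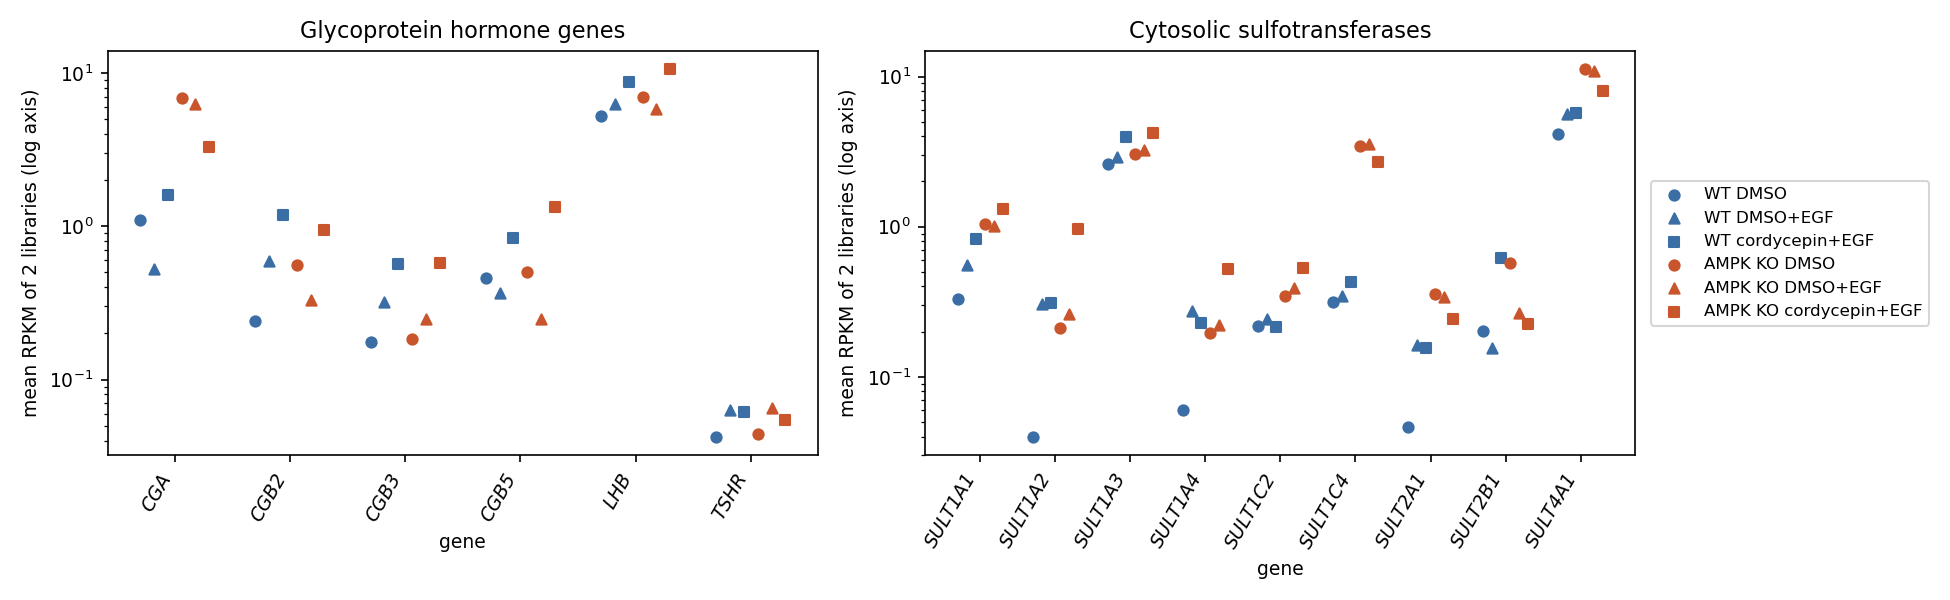
Mean RPKM of 2 libraries per group, on a log axis, for the listed glycoprotein hormone genes (left) and cytosolic sulfotransferases (right); blue is WT and orange AMPK KO, circles DMSO, triangles DMSO+EGF and squares cordycepin+EGF. CGA, SULT1C4 and SULT4A1 show orange above blue in every treatment, and LHB (5.26 to 10.6 RPKM) does not separate the lines. All 3 sulfotransferases tested besides SULT1C4 had log2 differences between the lines above 0 in each treatment. Over all tested genes 51.0%, 49.5% and 51.6% were above 0 in DMSO, DMSO+EGF and cordycepin+EGF.

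Of 19 genes that make, carry and remove sulfate 18 were listed and tested, and 2 passed between the lines. In DMSO+EGF 2 were lower in AMPK KO: SLC35B2, the Golgi carrier of PAPS (23.9 ± 0.919 to 13.6 ± 0.426 RPKM, log2 difference -0.77, SE 0.120, adjusted p 0.027), and SUMF2, a relative of the factor that activates sulfatases (11.8 ± 0.201 to 6.97 ± 0.142 RPKM, log2 difference -0.70, SE 0.115, adjusted p 0.0302). Both calls held in 4 of 12 fits with 1 library left out. None was called in DMSO or in cordycepin+EGF by limma, where 4 and 4 had an unadjusted p under 0.05 and voom called 4 and 0. In DMSO, PAPSS1, a PAPS synthase, averaged 9.02 RPKM in WT against 9.74 RPKM in AMPK KO. The median log2 difference of the list was -0.08, -0.07 and -0.08 in the 3 treatments.

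The neighbours of each gene on its chromosome were read in the same way, and none passed. Within 1 Mb of CGA 39 other genes are annotated, of which 13 were listed and 10 tested. None was called between the lines by limma in any treatment, and 2, 5 and 1 had an unadjusted p under 0.05 in DMSO, DMSO+EGF and cordycepin+EGF (2, 2 and 0 called by voom), against 21.3%, 22.5% and 13.7% of all genes. Their log2 differences in DMSO ran from -1.16 to 0.19, with 8 of 10 below 0, against 2.28 for CGA. In cordycepin+EGF 8 of 10 were above 0 (median 0.24), and C6orf163 at 1.06 exceeded CGA at 0.88. Within 1 Mb of SULT1C4 40 other genes are annotated, of which 13 were listed and 12 tested. None was called by limma, with 1, 3 and 1 of 12 at an unadjusted p under 0.05, beside the same shares of all genes, and 0, 1 and 0 called by voom. Their log2 differences in DMSO ran from -0.67 to 0.42, against 2.26 for SULT1C4.

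**Figure D4:**
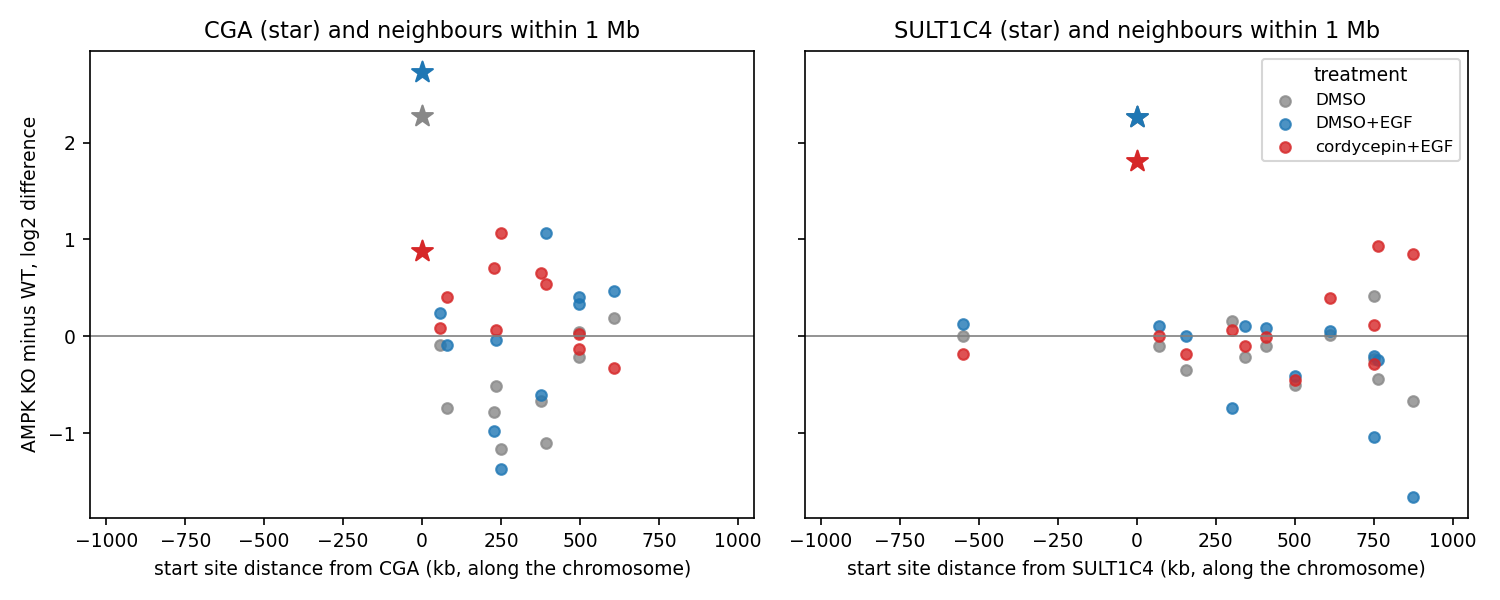
Difference between AMPK KO and WT (log2) against the distance of each gene's start from that of CGA (left) or SULT1C4 (right), in kb, for tested genes within 1 Mb; grey is DMSO, blue DMSO+EGF and red cordycepin+EGF, and stars are CGA and SULT1C4 themselves. The grey neighbours lie between -1.16 and 0.42, below both grey stars at 2.28 and 2.26 (the blue star of SULT1C4 covers its grey one). The red point of C6orf163 at 1.06 lies above the red star of CGA at 0.88.

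The genes whose pattern over the 12 libraries was most like each of the 2 were found among 18783 genes with a mean of at least 1 RPKM. All points share the difference between the lines, so these values describe a ranking and carry no p. For CGA they were RBM15B (Pearson r 0.982), ZNF142 (0.980), CCDC174 (0.978), METTL6 (0.977) and ABAT (0.972). RBM15B, an adaptor of the RNA methylation complex, had 14.3 RPKM in WT DMSO, 21.8 in AMPK KO DMSO and 18.8 in AMPK KO cordycepin+EGF. ABAT, which degrades the transmitter GABA, had 4.20, 8.16 and 6.10 RPKM in the same groups. Like CGA, both were lower in AMPK KO with cordycepin than without it, though their fold between the lines was far smaller. For SULT1C4 they were ZNF621 (r 0.987), MAF (0.983), SALL3 (0.980), TNC (0.978) and DOCK3 (0.973). SALL3, a developmental zinc finger factor, came closest in size, with 0.458 RPKM in WT DMSO, 3.07 in AMPK KO DMSO and 2.12 in AMPK KO cordycepin+EGF. TNC, the matrix protein tenascin C, had 2.24, 4.98 and 4.43 RPKM. Of these 10 genes 5 lie on chromosome 3 and none on chromosome 6. The share of the 18783 ranked genes on each chromosome was not computed, so nothing is read from this count.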

How the data were processed

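Ribosomal RNA-depleted, stranded libraries of HEK293 cells were sequenced by the authors as paired reads. With Rsubread the authors mapped these to GRCh38.p13 and assigned them to genes, and RPKM values of 12 libraries were deposited. Replicate 1 of each group had been discarded. Here 2 rows without a gene were left out. Symbols came from GENCODE 44, which matched 26029 of 26058 genes. Whole reads (within 0.05) were recovered for 25079 genes (96.24%). Each library was divided by its upper quartile of RPKM and put on the scale log2(scaled RPKM + 0.5), to which each log2 difference refers. Tests used limma 3.58.1 under R 4.3.3 (eBayes with trend, two-sided), over 22067 genes with a mean of at least 0.5 RPKM. All 12 libraries entered 1 fit with group means (6 residual degrees of freedom, 8.96 after moderation), and p-values were adjusted by Benjamini-Hochberg within each comparison at 0.05. The scripts were tested on simulated data. The position of the cordycepin libraries between the lines and the medians by chromosome segment were added after seeing the data.

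The members and gene lists were chosen with earlier results of these data known. Genes named were the 2 members, PRKAA1 and PRKAA2, list genes and neighbours that passed a test (1 list result is not reported here), the members' partners and paralogs, and the 5 genes most correlated with each member. Others were chosen after their values were seen: GCM1, CYP19A1, TSHR, LHX3, NR5A1, NEFL, CREM, CRTC1, CRTC2, CRTC3, SULT1A1 and PAPSS1 for their roles, and C6orf163, SMIM8 and SLC35A1 for their values. Same-numbered replicates were checked for pairing by correlating replicate differences. Within WT r was 0.136 to 0.315, within AMPK KO -0.122 to 0.031, and between the lines -0.081 to 0.322. The main fit did not take the numbers as pairs, although the positive r within WT leaves a shared replicate effect there possible. Replicate blocks were fitted for this reason as alternatives. Alternatives were other pseudocounts, filters and scalings, a fit of only the groups compared, replicate blocks (a centred coding was added after seeing the data), eBayes without trend, voom on recovered reads and leaving out each library.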

Additional observations from a re-analysis of the deposited data

Results flagged for a closer look

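The cordycepin differences of CGA had opposite signs in the 2 lines, and neither passed. Both WT cordycepin+EGF libraries (1.40 and 1.79 RPKM) were above both WT DMSO+EGF libraries (0.656 and 0.398 RPKM), and both AMPK KO cordycepin+EGF libraries (3.06 and 3.51 RPKM) were below both AMPK KO DMSO+EGF libraries (5.72 and 6.79 RPKM). The share of all genes whose libraries separate in this way was not computed, so no weight rests on the separation. The tested difference between the effects was -1.85 on the log2 scale (SE 0.423, p 0.00181), with an adjusted p of 0.122 by limma over all genes, so it did not pass. This difference equals the gap between the lines in cordycepin+EGF (0.88) minus that in DMSO+EGF (2.73). CGA was chosen for such a gap, so neither this test nor those within each line can be taken as independent of the choice. The AMPK KO cordycepin+EGF libraries also sat between the lines over the 381 other genes called in DMSO+EGF (medians 0.351 and 0.343, with WT DMSO at 0 and AMPK KO DMSO at 1), and over the 95 called in DMSO near AMPK KO (0.893 and 0.901). PRKAA1 (7.03 and 8.5 RPKM) was below, and SULT1C4 (2.19 and 3.19 RPKM) above, the WT cordycepin+EGF libraries (11.3 and 11.2, and 0.598 and 0.260 RPKM). The part of that position in the CGA result was not tested. Over the alternatives its adjusted p ran from 0.0115 to 0.349 and its value from -2.43 to -1.50.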

How the results depend on the processing

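With 2 libraries per group, and 13 and 4 reads of CGA and SULT1C4 in the shallowest library, counting error and 1 library can move the WT values. Of 384 recomputed treatment effects 357 kept direction and side of the threshold. Of 144 line differences 127 moved by under 1 SD of the replicates and none changed sign. Many settings cannot move a log2 value, so the counts do not measure robustness. The cause of the changes was not tested. For CGA, voom on recovered reads gave 1.51 for cordycepin in WT (adjusted p 0.0494), -0.92 in AMPK KO (adjusted p 0.0465), -1.06 against solvent in AMPK KO (adjusted p 0.0278) and -2.43 for the cordycepin effect by line (adjusted p 0.0115), and the fit of only the groups compared gave -1.85 for the last (adjusted p 0.0381). SULT1C4 gave an EGF effect by line of 0.0059 with a pseudocount of 1 and 0.021 with voom, against -0.0030. The line differences depended on the pseudocount, since both genes are low in WT. For CGA they were 3.19 in DMSO with voom, 3.38 in DMSO+EGF with a pseudocount of 0.1, 2.25 with 1 and 3.52 with voom, and 1.03 in cordycepin+EGF with 0.1 and 1.09 with voom. For SULT1C4 in DMSO they were 3.09, 1.74 and 3.29 with pseudocounts of 0.1 and 1 and voom, in DMSO+EGF 3.07, 1.75 and 3.32, and in cordycepin+EGF 2.47, 1.39 and 2.62. A replicate block within each cell line gave 1.95 for SULT1C4 in DMSO and 1.95 in DMSO+EGF, taken at replicate 2 as coded, and -1.85 for the CGA cordycepin effect by line (adjusted p 0.0964). A replicate block over all libraries gave the same -1.85 (adjusted p 0.105). A centred coding of the block within each line, added after seeing the data, takes the mean over both replicates and gave 2.26 and 2.26. No block moved a treatment effect of either gene across the threshold, and the replicate numbers did not show pairing in AMPK KO. Over all genes the calls between the lines in DMSO, DMSO+EGF and cordycepin+EGF were 36, 130 and 3 with the block within each line, 63, 231 and 23 with the centred one and 117, 311 and 27 with the block over all libraries. Of the list genes and neighbours 1, 3 and 4 passed in DMSO+EGF. The calls of SULT4A1 (adjusted p 0.0694, centred 0.0550), PDE4A, SIX2, NR4A1 and PRKACB with cordycepin (adjusted p up to 0.0881) were lost with the block within each line under both codings, those of SUMF2 (0.0543, centred 0.0495) and PRKACB in DMSO+EGF (0.0524, centred 0.0476) under the first.

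Leaving out each library in turn gave these lowest and highest values for CGA: -1.07 (without WT DMSO replicate 2, adjusted p 0.0447) and -0.077 (without replicate 3) for EGF in WT, -0.91 and -0.67 for cordycepin in AMPK KO, -0.013 and 0.98 (without WT DMSO replicates 2 and 3) for cordycepin and EGF against solvent in WT, -0.99 and -0.83 for the same in AMPK KO, -0.046 and 0.95 for the EGF effect by line, and -2.04 and -1.66 for the cordycepin effect by line. The differences between the lines ran from 1.78 to 2.77 (without WT DMSO replicates 2 and 3) in DMSO, 2.54 to 2.91 in DMSO+EGF and 0.75 to 1.00 in cordycepin+EGF for CGA, and from 2.16 to 2.36, 2.07 to 2.45 and 1.53 to 2.08 for SULT1C4. Without either WT DMSO library the AMPK KO effects of cordycepin passed, with adjusted p of 0.0450 and 0.0457 against DMSO+EGF and 0.0361 and 0.0375 against DMSO, although no value in them changed. For SULT1C4 the ranges were -0.15 and 0.22 for EGF in WT, -0.14 and 0.20 in AMPK KO, -0.13 and 0.42 for cordycepin in WT, -0.095 and 0.45 against solvent in WT, and -0.19 and 0.18 for the EGF effect by line. The genes of the lists and neighbours that passed between the lines, 97 tested, numbered 1 in DMSO, 6 in DMSO+EGF and 0 in cordycepin+EGF, and over the alternatives 0 to 16, 0 to 18 and 0 to 1. In DMSO+EGF leaving out any AMPK KO DMSO or DMSO+EGF library, or any WT DMSO+EGF or cordycepin+EGF library, left 0, and leaving out either WT DMSO library gave 18. In DMSO the count was 16 without WT DMSO replicate 3 and 11 with voom. Over all genes, voom called 1678, 2325 and 299, against 97, 383 and 26.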

Other observations

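A group of neighbours beyond CGA, chosen after their values were seen, had cordycepin differences opposite in sign to those of CGA in both lines. C6orf163, whose start lies 250 kb from that of CGA, had 1.83 ± 1.39 RPKM (SD, n = 2) in WT DMSO, 2.00 ± 0.625 in WT DMSO+EGF and 0.681 ± 0.33 in WT cordycepin+EGF, and 0.468 ± 0.251, 0.446 ± 0.0346 and 1.89 ± 0.00903 RPKM in the corresponding AMPK KO groups. SMIM8, at 227 kb, had 1.57, 1.89 and 0.774 RPKM in WT and 0.634, 0.699 and 1.58 RPKM in AMPK KO. SLC35A1, the Golgi carrier of CMP-sialic acid, at 376 kb, had 3.42, 3.29 and 2.36 RPKM and 1.97, 1.94 and 3.60 RPKM. Cordycepin thus went with lower values in WT and higher values in AMPK KO for all 3. Between the lines all 3 were lower in AMPK KO in DMSO and DMSO+EGF. In cordycepin+EGF all 3 were higher in AMPK KO, with log2 differences of 1.06, 0.70 and 0.65, and so was CGA at 0.88. The log2 differences of the cordycepin effect between the lines were 2.43 for C6orf163 (adjusted p 0.122 by limma), 1.68 for SMIM8 (adjusted p 0.127) and 1.26 for SLC35A1 (adjusted p 0.206), none of which passed.

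The chromosome segments that hold CGA and SULT1C4 were near the middle of all segments between the lines. Over 287 segments of 10 Mb with at least 20 tested genes, the median log2 difference between AMPK KO and WT in DMSO was -0.11 over the 60 genes of the segment that holds CGA (rank 184 from the highest) and -0.09 over the 46 genes of the one that holds SULT1C4 (rank 172). The highest medians included 0.55 over 37 genes at 240 to 250 Mb of chromosome 2, 0.45 over 79 genes at 210 to 220 Mb of chromosome 2, which holds ZNF142, and 0.38 over 142 genes at 40 to 50 Mb of chromosome 3, which holds ZNF621. These 3 were 0.50, 0.39 and 0.35 in DMSO+EGF and 0.40, 0.43 and 0.27 in cordycepin+EGF. The lowest was -0.67 over 41 genes at 180 to 190 Mb of chromosome 4, with -0.58 and -0.49 in the other treatments. ZNF142 and ZNF621 are among the genes most like CGA and SULT1C4 in pattern. No test was made of these medians.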
